A study of Mus musculus with 2 samples.

Results

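The somatostatin and tachykinin systems of the ventral parafacial brainstem were described from 9 genes, 9 of the 28692 genes in the deposited tables. They comprise the peptide precursors *Sst*, *Tac1* and *Tac2*, the somatostatin receptors *Sstr1*, *Sstr2*, *Sstr3* and *Sstr4*, and the tachykinin receptors *Tacr1* and *Tacr3*. The genes were taken by symbol, and their unique molecular identifiers (UMIs, each standing for 1 captured transcript) were summed over cells gated by *Nmb*, *Slc32a1*, *Slc17a6*, *Chat*, *Aqp4*, *Pdgfra*, *Mog* or *C1qa*. Cells came from brainstem slices of 10-day-old C57BL6/J mice in 2 single-cell RNA libraries. The untreated library (batch 1) has the condition label WT, for wild type. Mice of the 4OH-tamoxifen library (batch 2, labelled as 4OH-Tam injection) were given 0.2 mg per day for 3 days. Each library pooled 8 mice, 4 male and 4 female, and the labels name no transgene for either. There was 1 library per condition, so treatment, batch and library cannot be told apart and no test between conditions was possible. Where 2 values of a quantity stand side by side, the untreated library comes first and the 4OH-tamoxifen library second. The 2 conditions also differ in depth and in the number of cells caught.

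Somatostatin and the tachykinins are cut from longer precursors, stored in dense-core vesicles and released beside fast transmitters. Somatostatin receptors couple to inhibitory G proteins, which open inwardly rectifying potassium channels and close calcium channels, whereas tachykinin receptors couple to phospholipase C and mostly excite neurons. In the respiratory brainstem, *Sst* marks groups of respiratory interneurons, and the substance P receptor encoded by *Tacr1* is a known marker of neurons that drive breathing, among them chemoreceptor neurons of the retrotrapezoid nucleus (RTN).

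The stretches that encode the peptides are shown because one precursor, *Tac1*, carries 2 tachykinins whereas *Tac2* carries the third, and because the counted transcripts report precursors and not peptides. They were read from the GENCODE transcripts of build GRCm38, 5′ to 3′, and capitals mark the last 5 codons, which encode the C-terminal motif shared by tachykinins. Somatostatin-14 takes the last 14 of the 116 codons of *Sst*, substance P codons 58 to 68 and neurokinin A codons 98 to 107 of the 130 of *Tac1*, and neurokinin B codons 82 to 91 of the 116 of *Tac2*.
somatostatin-14: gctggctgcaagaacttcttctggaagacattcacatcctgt
substance P: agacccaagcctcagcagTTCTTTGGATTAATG
neurokinin A: cataaaacagattccTTTGTTGGACTAATG
neurokinin B: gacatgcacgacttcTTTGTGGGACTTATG
Across the 15 bases in capitals, neurokinin A shared 13 with neurokinin B from the other gene and 12 with substance P from its own gene, and substance P and neurokinin B shared 10.

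In build GRCm38, *Sst* lies at chr16:23889573-23890958 on the minus strand, *Tac1* at chr6:7554879-7565834 and *Tac2* at chr10:127724478-127731768, both on the plus strand. The receptor genes *Sstr1* (chr12:58211772-58214444), *Sstr2* (chr11:113619342-113626028), *Sstr4* (chr2:148395344-148396767), *Tacr1* (chr6:82402334-82560104) and *Tacr3* (chr3:134829007-134934579) are on the plus strand, and *Sstr3* (chr15:78537008-78544685) is on the minus strand. UMIs were counted from the 3′ end and not per length, so levels were compared between cell classes for one gene and not between genes.

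The untreated library held 18496942 UMIs in 3767 barcodes and the 4OH-tamoxifen library 34704167 in 10241, with medians of 3455 and 2316 UMIs. After filtering, 3339 and 8558 cells remained, and 40 barcodes occurred in both libraries. The gates gave 22 and 52 *Nmb* cells (RTN), 19 and 79 *Slc17a6* cells (excitatory), 82 and 297 *Slc32a1* cells (inhibitory) and 19 and 83 *Chat* cells (cholinergic). They gave 853 and 1833 *Aqp4* cells (astrocytes), 312 and 649 *Pdgfra* cells (oligodendrocyte precursors), 460 and 1412 *Mog* cells (oligodendrocytes) and 364 and 596 *C1qa* cells (microglia and macrophages). *Gad2*, an enzyme of GABA synthesis, was found in 91.5% and 89.9% of *Slc32a1* cells, and *Gal*, the galanin precursor carried by many RTN neurons, in 68.2% and 46.2% of *Nmb* cells. Of the markers listed for *Slc17a6* cells, *Slc17a8*, the third vesicular glutamate transporter, was near absent, at 0 and 1.27% of cells. *Slc17a7* was found in 5.26% and 7.59% of these cells and *Nrn1* in 63.2% and 55.7%. *C1qa* cells, with medians of 4032.5 and 2328 UMIs, gave the background of free RNA, against medians of 6547 and 3681 in *Nmb*, 9112 and 4619 in *Slc17a6* and 7724.5 and 4062 in *Slc32a1* cells.

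The classes differed in which peptides and receptors they held. A member was counted as above background where its UMIs per 1000000 UMIs of the class (CPM) were at least 4 times those of *C1qa* cells in both libraries, among members with at least 10 UMIs in that class. A member could reach those 10 UMIs through a high level alone, so the counts are descriptions. In *Slc17a6* cells the 4 members that reached the minimum, *Sst*, *Tac1*, *Sstr2* and *Tacr1*, were above background, beside 23% of all genes tested there. In *Slc32a1* cells 3 of 7 were, *Sst*, *Tac2* and *Tacr3*, beside 18.4% of genes. In *Nmb* cells 1 of 1 was, *Tacr1*, beside 23.5%, and in *Chat* cells 2 of 2, *Sst* and *Tacr1*, beside 23.4%. The *Sst* call in *Chat* cells was lost without the cell with the most *Sst*, which held 4 of 6 and 8 of 20 UMIs, and with the transmitter gate at 2 UMIs, where the untreated level was 0 CPM. Of the glia, *Pdgfra* cells had 2 of 3, *Tac1* and *Sstr1*, beside 8.06% of genes, whereas *Aqp4* and *Mog* cells had 0 of 3 each, beside 6.48% and 5.67%. Intervals are exact at 95% (Poisson for CPM, Clopper-Pearson for shares) and cover counting error only.

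**Figure D1:**
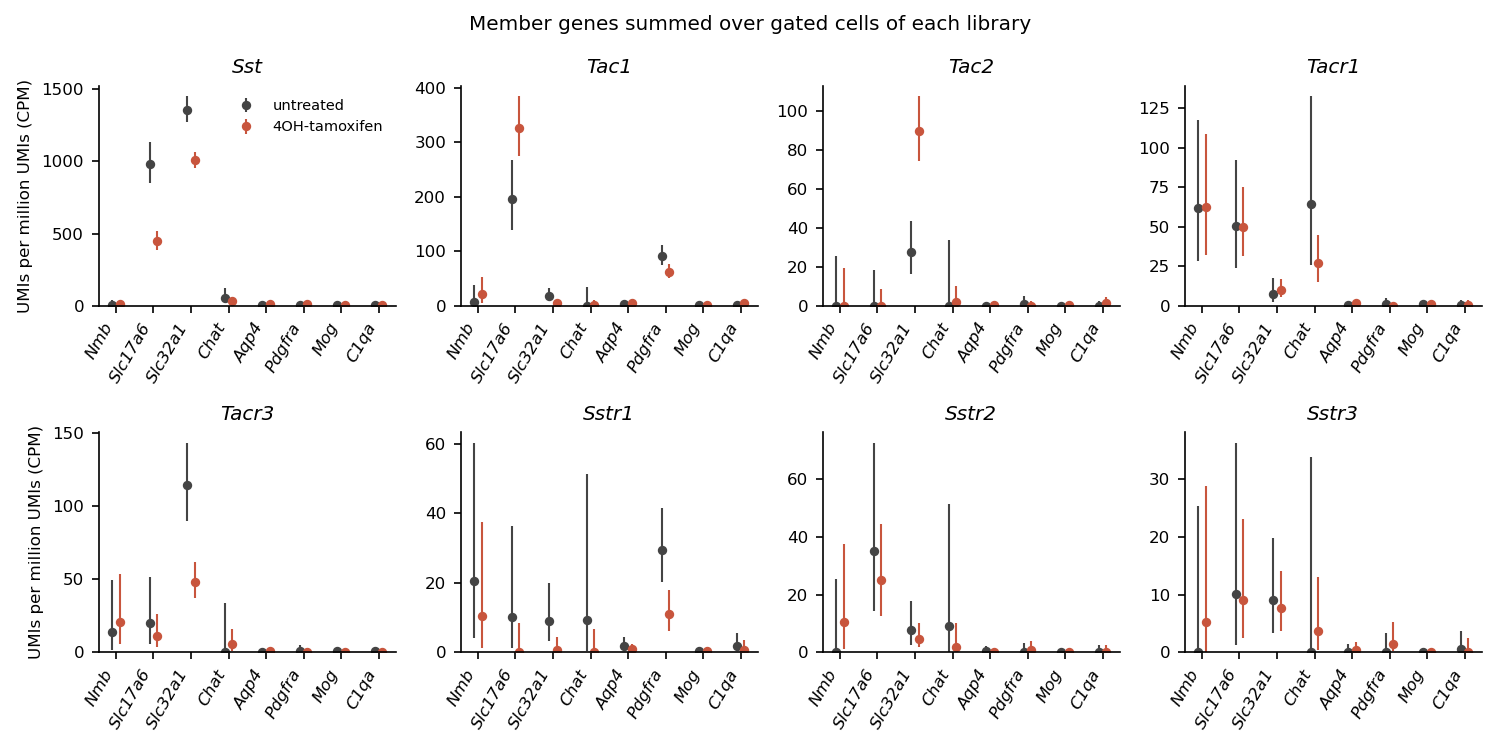
Level of 8 members (CPM) in the 8 gated classes, untreated in grey and 4OH-tamoxifen in red, with exact Poisson 95% intervals as bars. *Sst* is highest in *Slc32a1* cells at 1357 and 1008 CPM, *Tac1* is above background in *Slc17a6* and *Pdgfra* cells, and *Tacr1* is spread over *Nmb*, *Slc17a6* and *Chat* cells. *Sstr4* had no UMI and is not drawn.

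*Sst*, the somatostatin precursor, had its main source in inhibitory neurons. It stood at 1357 CPM (1269 to 1449) and 1008 CPM (954 to 1064) in *Slc32a1* cells, against 2.59 and 7.16 CPM in *C1qa* cells. It was found in 38 of 82 cells (46.3%) and 129 of 297 cells (43.4%), against 1.10% and 1.85% of *C1qa* cells. With at least 2 UMIs the shares were 43.9% and 32.0%, and after each cell was thinned to 2000 UMIs they were 40.2% and 34.5%. *Slc32a1* cells were 3.19% of all kept cells and held 66.7% of the 3312 *Sst* UMIs.

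The UMIs of *Sst* were unevenly spread over inhibitory cells. In untreated cells the highest held 151 UMIs and the median cell with *Sst* 9.5, and in 4OH-tamoxifen cells these were 88 and 5. Just 6 of 82 and 17 of 297 cells held 50% of the UMIs of their class. Cells without any *Sst* numbered 44 and 168, so the class held cells with very much and cells with no detected somatostatin transcript side by side.

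**Figure D2:**
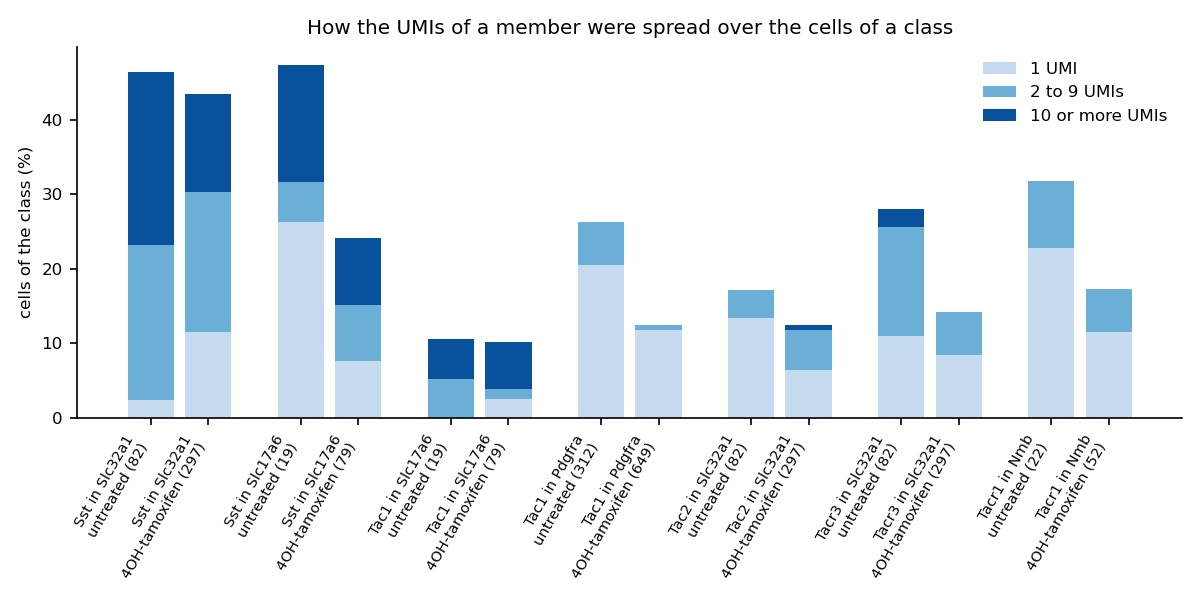
Percent of the cells of a class (number of cells in brackets) that held 1, 2 to 9, or 10 or more UMIs of a member, by library. *Sst* and the *Tac1* of *Slc17a6* cells reach 10 or more UMIs in single cells, whereas the *Tac1* of *Pdgfra* cells does not go above 4.

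Inhibitory cells with at least 2 *Sst* UMIs (36 and 95 cells) were compared with those with none (44 and 168 cells). By the smaller of both libraries' CPM ratios, the genes that stood highest in *Sst* cells were *Mgl2*, *Fndc1*, *Gchfr*, *Sostdc1* and *Tacr3*. *Mgl2*, a lectin better known from macrophages, had 13 and 13 UMIs in the *Sst* cells against 0 and 1 in the others, and 14.2 and 5.21 CPM in *C1qa* cells. *Sostdc1*, a secreted antagonist of BMP and Wnt signals, had 11 and 12 against 0 and 4 UMIs. After thinning, the intervals of *Fndc1* and *Gchfr* reached a ratio of 1. The receptor for neurokinin B, *Tacr3*, was the member with the highest ratio, with ratios of 3.64 and 7.67 (both libraries 5.20, 3.37 to 8.28). *Tacr3* was found in 33.6% of the *Sst* cells and 6.13% of the others.

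Of 26 listed inhibitory subgroup genes, 20 had at least 20 UMIs over both groups. Of these, 5 were higher in *Sst* cells in both libraries and 9 were lower, each with an interval over both libraries summed that left out 1. Within the untreated library the intervals of *Gad1* (0.735 to 1.07), *Pvalb* (0.0259 to 1.14) and *En1* (0 to 1.33) reached 1, whereas in the 4OH-tamoxifen library they did not. No share over all genes stands beside these counts or those of the later splits, so they are descriptions. The higher ones were the synaptic organizer *C1ql2* (ratio 3.54, 2.57 to 4.94), the transcription factor *Prox1* (3.49, 2.45 to 5.03), the matrix protein *Reln* (2.89, 2.06 to 4.10), the neuronal glycine transporter *Slc6a5* (1.62, 1.37 to 1.90) and *Lamp5* (1.39, 1.23 to 1.56). The lower ones were led by the cholecystokinin precursor *Cck*, with 2 UMIs in *Sst* cells against 335 in the others (ratio 0.00855, 0.00103 to 0.0311). The transcription factors *Lhx1* (0.0298), *Tfap2b* (0.0417) and *En1* (0.116) were likewise lower. *Calb2* (0.183), *Nos1* (0.329), *Ndnf* (0.336), *Pvalb* (0.406) and *Gad1* (0.843) completed the lower genes.

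**Figure D3:**
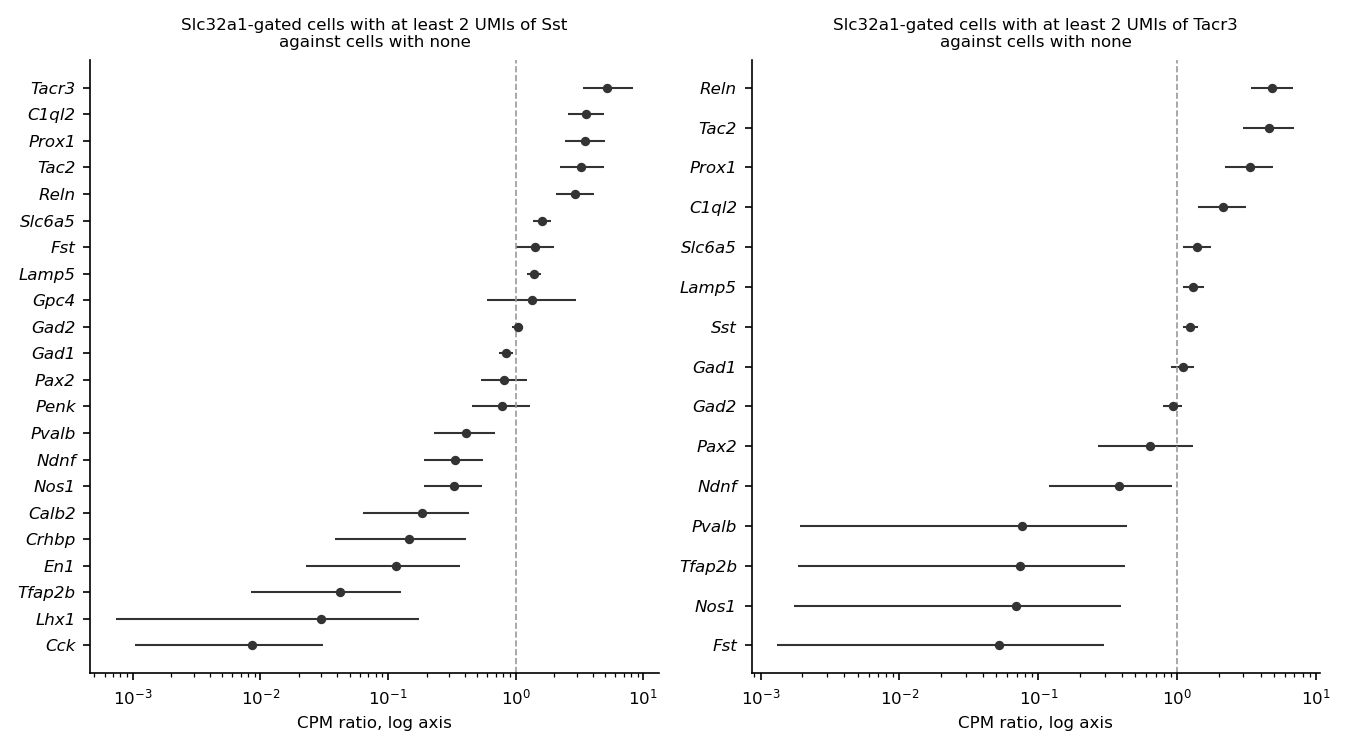
CPM ratio over both libraries (log axis, exact 95% intervals as bars, dashed line at 1) of listed genes and members in *Slc32a1* cells with at least 2 UMIs of *Sst* (left) or *Tacr3* (right) against cells with none. *Tacr3*, *C1ql2*, *Prox1*, *Tac2* and *Reln* lie to the right and *Cck* farthest to the left for *Sst*, and *Reln* and *Tac2* lead for *Tacr3*.

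Counted cell by cell, *Cck* was present in 3 of 167 inhibitory cells with *Sst* (1.80%) and in 26.9% of those without it. *Pvalb* was present in 8.38% and 8.96% of these cells, and *Ndnf* in 7.19% and 11.8%. The share of *Pvalb* counts cells with a single UMI, and *C1qa* cells held *Pvalb* at 28.0 CPM in the 4OH-tamoxifen library, near the 37.3 CPM of its cells with at least 2 *Sst* UMIs.

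*Slc17a6* cells were a further source of *Sst*, resting on few cells. The level was 985 CPM (852 to 1133) and 448 CPM (388 to 515), from 9 of 19 (47.4%) and 19 of 79 cells (24.1%). A single untreated cell held 113 of 196 UMIs, and the class was at 437 and 362 CPM without the cell with the most *Sst* in each library. Where a glial gene at 1 UMI was enough to leave a cell out, 5 untreated cells remained at 15.6 CPM, against 590 CPM in the other library, so the order of the libraries turned.

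Within the classes, cells were further split by single genes, all splits chosen after values were seen. *Slc17a6* cells with *Dbh* or *Th*, the enzymes of catecholamine synthesis, had *Sst* at 29.9 CPM, against 615 CPM in the whole class. It was found in 5 of 19 of them (26.3%) beside 28 of 98 in the class (28.6%), with at most 2 UMIs in a cell. Of 13 listed excitatory genes, 7 had 20 UMIs, none was higher and 5 were lower in the 17 cells with at least 2 *Sst* UMIs. The peptide genes *Cartpt* (0 against 203 UMIs), *Gal* (0 against 54) and *Penk* (18 against 159), and *Th* and *Dbh*, were the lower ones. The genes that stood highest with *Sst* there were *Pde1c* (17 against 2 UMIs), *Calca* (18 against 6), *Col27a1*, *Col5a1* and *Mpped1*, with ratios of 36.9 to 7.61, of which *Calca* encodes the peptide CGRP. After thinning, the log2 ratios of *Calca* (0.17) and *Col5a1* (1.17) had intervals that reached 0, and that of *Mpped1* turned to -0.057.

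*Sst* was lower in *Chat*, *Nmb*, *Aqp4*, *Pdgfra* and *Mog* cells. Neurons in no gate held 35 UMIs of it, at 24.3 and 34.6 CPM, against 2.59 and 7.16 CPM in *C1qa* cells. The *Tph2* gate had 1 cell in each library, so its *Sst* is not described as low or high. *Chat* cells stood at 55.2 and 36.1 CPM, and at 19.8 and 22.1 CPM without their top cell. *Nmb* cells held 1 and 2 UMIs, or 6.87 and 10.4 CPM, too few to set them apart from the background at this depth. *Aqp4* (6.32 and 12.9), *Pdgfra* (2.68 and 10.2) and *Mog* cells (4.26 and 5.00) lay within 4 times the *C1qa* level of their library. Cells that passed more than 1 gate held 11.2% of all *Sst* UMIs, at 86.7 and 58.9 CPM.

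*Tac1*, the precursor of substance P and neurokinin A, was above background in *Slc17a6* and in *Pdgfra* cells, which held 23.1% and 23.9% of its 792 UMIs. Cells in no gate held 24.6%, at 12.4 and 5.69 times the background, and neurons in no gate 4.55%, at 5.00 and 8.62 times. In *Slc17a6* cells it was at 196 CPM (139 to 268) and 326 CPM (275 to 384), against 1.29 and 4.56 CPM in *C1qa* cells. Just 2 of 19 and 8 of 79 cells held it, with up to 33 and 34 UMIs in a cell, so few excitatory cells carried much of it. The untreated level was 32.7 CPM without the cell with the most *Tac1* and 515 CPM when a glial gene at 1 UMI left a cell out, and the order of the libraries turned in the second case, with 427 CPM in the 4OH-tamoxifen library. It also turned with the glial gate at 4 UMIs, at 386 and 302 CPM.

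In the 8 excitatory cells with at least 2 *Tac1* UMIs, *Th*, *Dbh* and *Cartpt* had 0 UMIs against 111, 131 and 277 in cells without *Tac1*, and these were the 3 lower of 7 listed genes with 20 UMIs, with none higher. The genes highest with *Tac1* were the peptide gene *Vip* (29 against 23 UMIs, 28 of the 29 in 1 untreated cell), *Rgs5* (11 against 13 UMIs, all 11 in 1 cell, and 142 and 39.7 CPM in *C1qa* cells), *Crip2*, *Pam* and the GABA receptor subunit gene *Gabrg3*. In the 4OH-tamoxifen library the ratio of *Vip* was 0.817 (0.0197 to 5.08). *Pam*, which amidates the C terminus of substance P and other peptides, was at a ratio of 5.80 (3.16 to 10.3). *Sst* and *Tac1* were found together in 3 of 98 excitatory cells, 10.7% of the cells with *Sst* and 30% of those with *Tac1*.

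In oligodendrocyte precursors, *Pdgfra* cells, *Tac1* stood at 92.1 CPM (75.2 to 112) and 62.6 CPM (50.1 to 77.3), in 82 of 312 (26.3%) and 81 of 649 cells (12.5%). *C1qa* cells had it in 0.549% and 1.17% of cells, at medians of 4032.5 and 2328 UMIs, and *Pdgfra* cells were no deeper, with medians of 3229 and 1891 UMIs. After thinning, the shares were 18.6% and 8.99% in *Pdgfra* and 0.286% and 0.725% in *C1qa* cells. No *Pdgfra* cell held more than 4 UMIs, so the glial *Tac1* was spread thinly over many cells where the neuronal *Tac1* was packed into few. The 4OH-tamoxifen level was 40.6 CPM with a minimum of 1200 genes per cell.

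The level of *Tac1* in precursors was of like size with and without neuronal transcripts. Among *Pdgfra* cells without any UMI of *Snap25*, *Syp*, *Tubb3* or *Elavl2*, *Tac1* was at 97.6 CPM (71.7 to 130) and 55.2 CPM (38.4 to 76.7), against 88.0 and 69.0 CPM in those with at least 1. In cells with at least 2 *Tac1* UMIs, *Snap25* was at a ratio of 1.84 (0.988 to 3.15) to cells without *Tac1*, an interval that reached 1.

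*Tac1* was compared between dividing and other precursors. *Pdgfra* cells with *Top2a* or *Mki67*, genes of dividing cells, stood at 39.7 and 38.6 CPM, and those with neither at 116 and 72.9 CPM. Over both libraries the values were 39.1 CPM (26.4 to 55.9) and 92.2 CPM (78.4 to 108), with intervals that did not overlap. Nor did they in the untreated library, but in the 4OH-tamoxifen library they did (22.1 to 62.8 and 56.9 to 92.2 CPM). By *Gpr17*, which marks precursors on their way to oligodendrocytes, the levels were 78.5 and 45.3 CPM in cells with at least 2 UMIs and 105 and 70.2 CPM in the others. In *Pdgfra* cells with at least 2 *Tac1* UMIs (18 and 5 cells), *Olig1* was the 1 of 10 listed genes with 20 UMIs that was higher (1.32, 1.13 to 1.53 over both libraries), with an interval that reached 1 in the untreated library (1.13, 0.947 to 1.34). *Erlec1*, *Fzd9*, *Tmem115*, *Ppp1r15b* and *Trp53* had the highest ratios over both libraries summed, from 13 to 10 UMIs each. These rest on the untreated cells: *Fzd9*, *Tmem115* and *Trp53* had 0 UMIs in the 5 cells of the 4OH-tamoxifen library, *Erlec1* had 1 and *Ppp1r15b* 2, and the untreated ratios were 2.87 to 4.44.

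Cells outside every gate that held exactly 1 *Pdgfra* UMI also held *Tac1*. It was at 67.3 CPM (43.1 to 100) and 46.1 CPM (33.6 to 61.7) in them, against 15.3 and 21.6 CPM in ungated cells with no *Pdgfra* UMI. These cells held 69 of the 195 *Tac1* UMIs of ungated cells.

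**Figure D4:**
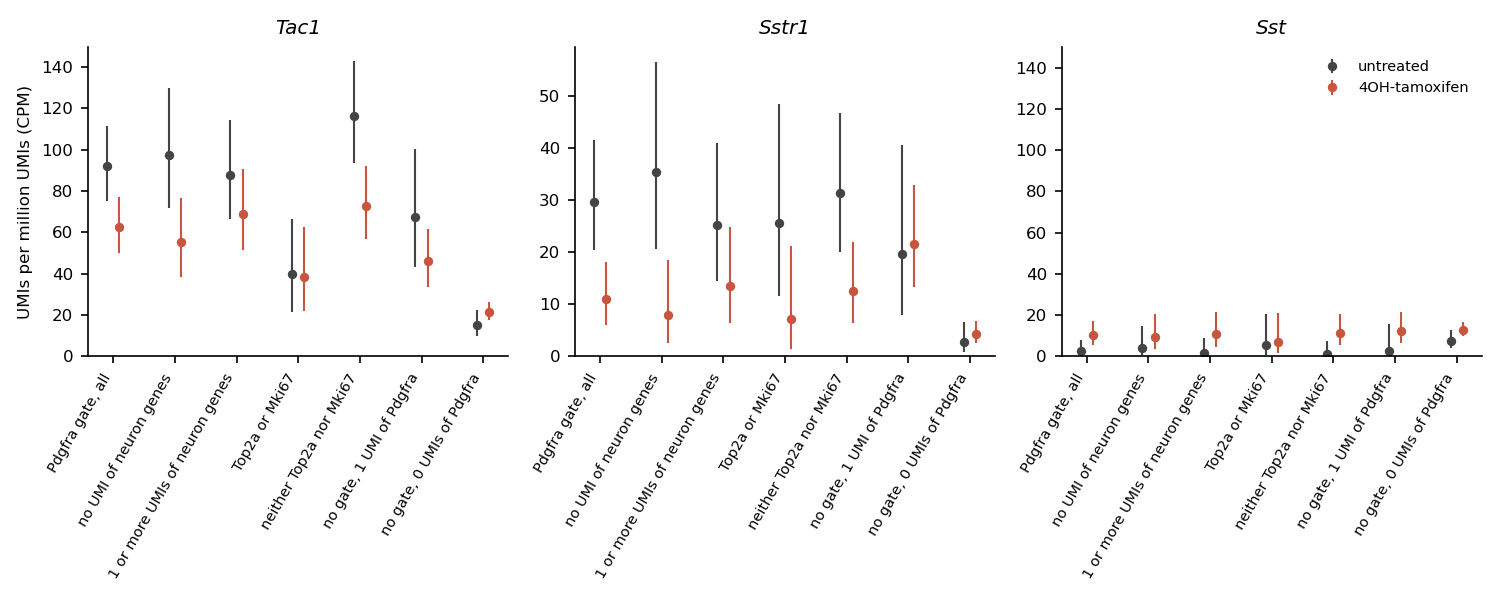
Level (CPM, exact Poisson 95% intervals) of *Tac1*, *Sstr1* and *Sst* in *Pdgfra* cells, in subsets of them by neuron genes and by *Top2a* or *Mki67*, and in ungated cells by *Pdgfra* UMIs. *Tac1* lies between 38.6 and 116 CPM in the *Pdgfra* subsets, and *Sst* is at 2.68 and 10.2 CPM in all *Pdgfra* cells.

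*Tac1* was low in the remaining classes. *Slc32a1* cells held 12 and 7 UMIs (18.2 and 5.36 CPM), 9 of the 12 in a single cell, and *Nmb* cells 1 and 4 UMIs. *Mog* (1.79 and 1.96 CPM) and *Aqp4* cells (4.09 and 5.51 CPM) did not reach 4 times the background in both libraries. With 1 and 2 inhibitory cells at 2 or more *Tac1* UMIs, the genes that went with it there (*Cbx3*, *Zcchc12*, *Tubb2b*, *Ube2d2a* and *Cd200*) describe 3 cells.

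*Tac2*, the precursor of neurokinin B, came mostly from inhibitory neurons. *Slc32a1* cells held 135 of its 180 UMIs, at 27.4 CPM (16.2 to 43.2) and 89.6 CPM (74.1 to 107). It was found in 14 of 82 (17.1%) and 37 of 297 cells (12.5%), against 0 and 0.336% of *C1qa* cells, and in 6.10% and 8.90% after thinning. The share of cells and the CPM ran in opposite order between the libraries, so no order is read from the shares, and the highest cells held 3 and 17 UMIs. *Nmb* and *Slc17a6* cells held 0 UMIs, which at the floor of 3 counts, used here in place of an interval, allows up to 8.87 CPM and 4.68 CPM over both libraries.

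*Tac2* cells overlapped with *Sst* cells. Of 51 inhibitory cells with *Tac2*, 35 had *Sst* (68.6%), and these were 35 of the 167 cells with *Sst*. In cells with at least 2 *Sst* UMIs the *Tac2* level was 3.27 times that of cells without *Sst* (2.22 to 4.89), with ratios of 1.21 and 4.19 by library. Conversely, the 21 cells with at least 2 *Tac2* UMIs had less *Sst* than those without *Tac2* by UMIs (ratio 0.695, 0.554 to 0.862), although 61.9% of them held it against 40.2%. Their *Tacr3* was higher over both libraries (3.25, 1.90 to 5.30), with ratios of 1.65 (0.435 to 4.49) and 5.26 (2.75 to 9.57) by library, the first from 1 of 3 cells.

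Of 20 listed genes with 20 UMIs, 1 was higher in *Tac2* cells, *Reln* (2.48, 1.50 to 3.90), and 6 were lower, *Pvalb*, *Cck*, *Ndnf*, *Penk*, *C1ql2* and *Tfap2b*. These calls are over both libraries summed, with 3 untreated and 18 4OH-tamoxifen cells with *Tac2*. Within the 4OH-tamoxifen library the intervals of *C1ql2* (ratio 0.329, 0.0391 to 1.23) and *Tfap2b* (0.228, 0.00569 to 1.32) reached 1. The genes with the highest ratios were *Pgr15l* (8.08), *Gal* (6.81), *Ehbp1* (4.06), *Ptrhd1* (3.59) and *Irf2bp1* (3.49), and the *Gal* UMIs came from 9.52% of the *Tac2* cells, or 2 of 21. With the glial gate at 1 UMI the log2 ratio of *Gal* turned to -0.25, and after thinning the intervals of *Ehbp1*, *Ptrhd1* and *Irf2bp1* reached a ratio of 1.

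*Tacr1*, the receptor for substance P, was found in 3 classes of neurons and was low in glia. *Nmb* cells stood at 61.9 CPM (28.3 to 117) and 62.3 CPM (32.2 to 109), from 9 and 12 UMIs. It was found in 7 of 22 (31.8%) and 9 of 52 cells (17.3%), against 0.275% and 0.168% of *C1qa* cells, and in 4.55% and 10.9% after thinning, where the untreated share stands for 1 cell. With at most 10% mitochondrial UMIs, 3 and 12 *Nmb* cells were left, at 0 and 134 CPM.

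*Slc17a6* cells had *Tacr1* at 50.2 CPM (24.1 to 92.4) and 49.8 CPM (31.2 to 75.4), in 4 of 19 and 14 of 79 cells. *Chat* cells had it at 64.4 CPM (25.9 to 133) and 27.1 CPM (15.1 to 44.6), in 3 of 19 and 13 of 83 cells. The intervals of *Nmb*, *Slc17a6* and *Chat* cells overlapped in both libraries, so their order is not resolved, and *Slc32a1* cells stood at 7.60 CPM (2.47 to 17.7) and 9.95 CPM (5.30 to 17.0), the second of which overlapped *Chat* cells of the same library. Without the top cell the untreated *Slc17a6* and *Chat* levels were 21.1 and 23.5 CPM, and with at most 10% mitochondrial UMIs the untreated *Slc17a6* level was 8.77 CPM.

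*Tacr1* was also counted in cells split by other genes. In *Slc17a6* cells with *Dbh* or *Th*, catecholamine neurons by those genes, it was found in 10 of 19 cells at 74.7 CPM (41.8 to 123), an interval that held the level of the whole class, and in 3 of 19 after thinning. *Tac1* had 0 UMIs in these cells. In *Nmb* cells with *Gal* it was at 85.7 CPM (49.0 to 139) in 39 cells, and at 33.0 CPM (10.7 to 77.1) in 35 cells without *Gal*, with overlapping intervals. Of the 10 excitatory cells with *Tac1*, 1 held *Tacr1* (10%), beside 19.3% of the excitatory cells without *Tac1*.

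*Tacr3*, the receptor for neurokinin B, was highest in inhibitory neurons among the 8 classes. The *Dbh* gate, outside them, held 5 UMIs in 1 of its 2 untreated cells. *Slc32a1* cells held 138 of its 213 UMIs, at 114 CPM (89.6 to 143) and 48.2 CPM (37.1 to 61.7), in 23 of 82 (28.0%) and 42 of 297 cells (14.1%). The thinned shares were 15.9% and 9.25%, and *C1qa* cells held 1 and 0 UMIs. *Nmb* cells held 2 and 4 UMIs (13.7 and 20.8 CPM) and *Slc17a6* cells 4 and 5 (20.1 and 11.3 CPM), fewer than the 10 UMIs set for a comparison with the background.

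*Tacr3* cells differed from the rest of their class in other genes too. Inhibitory cells with at least 2 *Tacr3* UMIs (14 and 17 cells) had *Reln* at a ratio of 4.84 (3.41 to 6.81), *Calca* at 4.58 (3.17 to 6.55), *Megf11* at 4.17 (2.86 to 6.02), *Nfix* at 3.54 (2.77 to 4.51) and *Prox1* at 3.32 to cells without. These led by the smaller of both libraries' ratios. Of the 20 listed genes with 20 UMIs, 4 were higher, *Reln*, *Prox1*, *C1ql2* and *Slc6a5*, and 10 were lower, among them *Cck* with 0 UMIs against 340. *Sst* was found in 83.9% of *Tacr3* cells and 36.6% of the others, and *Tac2* in 35.5% and 10.8%. Counted at 1 UMI, 80% of the 65 cells with *Tacr3* held *Sst*, so most inhibitory cells with detected neurokinin B receptor also held somatostatin transcript.

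The somatostatin receptors were sparse. *Sstr4* had 0 UMIs in all 3767 and 10241 barcodes, whereas *Sstr1* had 158, *Sstr2* 55 and *Sstr3* 39 in the kept cells. *Sstr1* stood in *Pdgfra* cells at 29.5 CPM (20.3 to 41.4) and 10.9 CPM (6.11 to 18.0), in 30 of 312 (9.62%) and 15 of 649 cells (2.31%). *Nmb* cells, with 3 and 2 UMIs, were at 20.6 CPM (4.25 to 60.3) and 10.4 CPM (1.26 to 37.5), so the order of these classes is not resolved. *C1qa* cells had 0.824% and 0.168%, and the thinned shares of *Pdgfra* cells were 4.07% and 2.52%. Ungated cells with exactly 1 *Pdgfra* UMI stood at 19.6 and 21.5 CPM and those with none at 2.84 and 4.37 CPM, so *Sstr1*, like *Tac1*, followed *Pdgfra* beyond the gate. The 4OH-tamoxifen level was 20.7 CPM where the glial gate asked for 4 UMIs. *Tac1* and *Sstr1* were found together in 10 *Pdgfra* cells, 6.13% of those with *Tac1* against 4.39% of those without. Within each library the shares were close, at 9.76% against 9.57% (untreated) and 2.47% against 2.29% (4OH-tamoxifen).

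*Sstr2* stood in *Slc17a6* cells at 35.2 CPM (14.1 to 72.5) and 24.9 CPM (12.4 to 44.6), from 7 and 11 UMIs in 5 of 19 and 7 of 79 cells, with intervals that overlapped those of *Nmb* cells in both libraries. After thinning it was found in 0 untreated cells. *Sstr3* had 6 and 10 UMIs in *Slc32a1* cells (9.12 and 7.66 CPM) and 2 and 4 in *Slc17a6* cells (10.0 and 9.06 CPM), with overlapping intervals. In *Nmb* cells the counts were 3 and 2 UMIs for *Sstr1*, 0 and 2 for *Sstr2* and 0 and 1 for *Sstr3*, which is too few to place any of them above or below the background.

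Counted per family at 1 UMI, receptors for either peptide system were detected in all neuron classes. For the somatostatin receptors in *Chat* cells this rests on 1 UMI of *Sstr1*, 2 of *Sstr2* and 2 of *Sstr3* over both libraries, too few to set against the background. Any of the somatostatin receptors was found in 7 of 74 *Nmb* cells (9.46%, 3.89 to 18.5), 18 of 98 *Slc17a6* cells (18.4%, 11.3 to 27.5) and 29 of 379 *Slc32a1* cells (7.65%), against 5 of 960 *C1qa* cells (0.521%). After thinning these were 7.35%, 6.59%, 2.48% and 0.524%, so the lead of *Slc17a6* cells was not seen at equal depth. *Tacr1* or *Tacr3* was found in 21 of 74 *Nmb* cells (28.4%, 18.5 to 40.1), 20 of 98 *Slc17a6* cells (20.4%), 76 of 379 *Slc32a1* cells (20.1%) and 17 of 102 *Chat* cells (16.7%), against 3 of 960 *C1qa* cells (0.313%). By contrast, a peptide of either system was found in 187 of 379 *Slc32a1* (49.3%) and 35 of 98 *Slc17a6* cells (35.7%), but in 4 of 74 *Nmb* cells (5.41%, 1.49 to 13.3), an interval that includes the 2.71% of *C1qa* cells (26 of 960). After thinning, tachykinin receptors were found in 13.2% and peptides in 4.41% of *Nmb* cells.

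**Figure D5:**
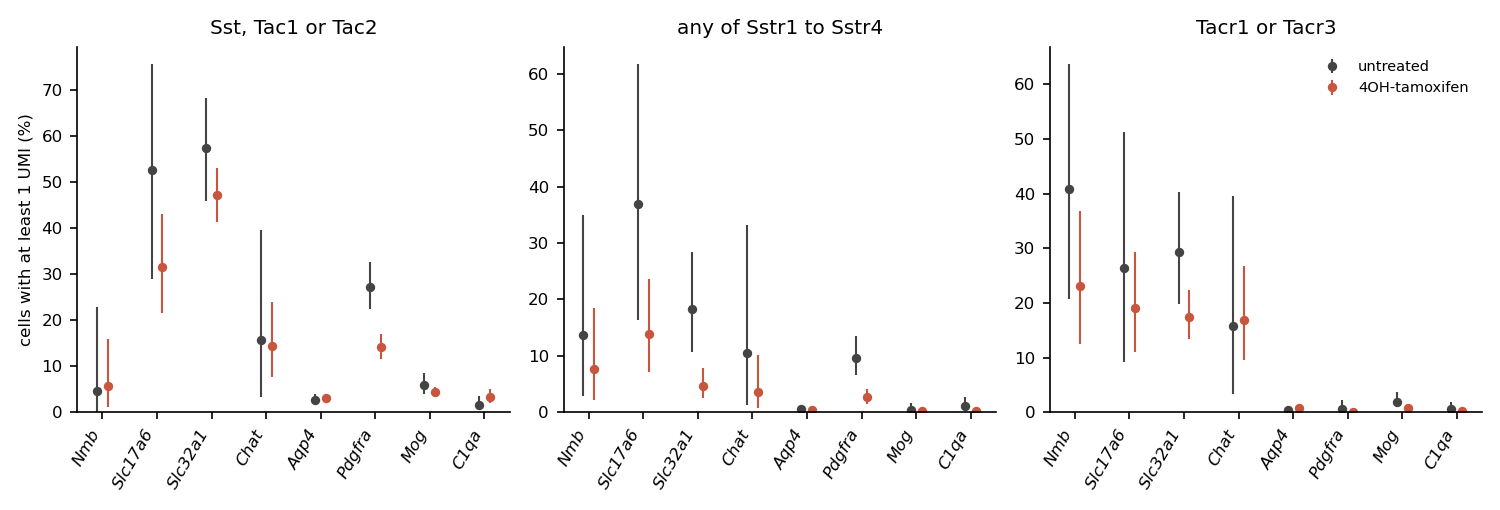
Percent of cells of each class with at least 1 UMI of a peptide, of a somatostatin receptor or of a tachykinin receptor, by library, with exact binomial 95% intervals. *Nmb* cells are at 4.55% and 5.77% for peptides and at 40.9% and 23.1% for tachykinin receptors.

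Other genes of both pathways were followed with a list of 27 genes of ligands, processing, breakdown, G proteins and effector channels, counted by the same rule and beside the same shares of all genes as the members. Above background were 11 of 16 genes with 10 UMIs in *Nmb*, 14 of 21 in *Slc17a6*, 12 of 19 in *Slc32a1* and 10 of 17 in *Chat* cells. The glial classes had 5 of 17 in *Pdgfra*, 2 of 19 in *Aqp4* and 2 of 18 in *Mog* cells. The ligand *Cort*, closely related to *Sst*, and *Sstr5*, *Tac4* and *Tacr2* had 13, 1, 1 and 0 UMIs in the kept cells and could not be described.

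Among processing genes, the prohormone convertase *Pcsk2*, its chaperone *Scg5* and *Pam* passed in the neuron classes and in *Pdgfra* cells. Outside the 8 classes, *Pam* was also above background in *Cldn5* (16.0 and 14.9 times), *Kcnj8* (7.78 and 8.20 times) and *Dcn* cells (54.8 and 44.2 times). *Pcsk2* was at 687 and 337 CPM in *Nmb*, 236 and 319 in *Slc17a6*, 134 and 98.0 in *Slc32a1* and 137 and 87.4 in *Pdgfra* cells, against 9.71 and 3.90 in *C1qa* cells. In *Pdgfra* cells the other convertase, *Pcsk1*, held 3 UMIs over both libraries, and *Cpe*, which trims cut peptides, was at no more than 3.64 times the background and was not counted. Of the breakdown genes, *Ace*, whose enzyme cuts substance P, passed in the 4 neuron classes (20.6 and 51.9 CPM in *Nmb* cells), and *Mme*, the gene of neprilysin, in *Slc17a6* cells alone (20.1 and 13.6 CPM). *Ace* was also above background in *Cldn5* cells (5.78 and 5.16 times). Downstream of the somatostatin receptors, *Gnao1* passed in all 4 neuron classes and the potassium channel gene *Kcnj3* in *Slc17a6* (70.3 and 79.2 CPM), *Slc32a1* and *Chat* cells, but in *Nmb* cells *Kcnj3* was at 13.7 and 15.6 CPM with too few UMIs to be counted. Both were also above background in glia, *Kcnj3* in *Aqp4* (5.17 and 5.64 times) and *Pdgfra* cells (4.14 and 5.59 times) and *Gnao1* in *Mog* cells (6.70 and 4.15 times). *Nalcn*, a sodium leak channel gated by substance P in some neurons, was at 234 and 182 CPM in *Nmb* cells, and *Plcb4* at 55.0 and 72.7 CPM. Both passed in all 4 neuron classes, *Plcb4* at 14.2 and 8.59 times the background in *Nmb* and 38.8 and 13.9 times in *Slc17a6* cells. *Nalcn* also passed in *Pdgfra* cells (5.22 and 4.47 times), and *Plcb4* was above background in *Cldn5* and *Dcn* cells.

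Between the libraries, a member was counted as different at a CPM ratio of 2 or more either way, among members with 20 UMIs in the class. In *Slc32a1* cells 2 of 3 were, beside 5.75% of all genes. *Tac2* was 3.28 times (1.98 to 5.72) higher in the 4OH-tamoxifen library, and *Tacr3* was 2.36 times (1.67 to 3.36) higher in the untreated library. Under the 13 alternatives and without the top cell, *Tac2* ranged from 23.2 to 33.5 CPM against 65.5 to 125 CPM, and *Tacr3* from 100.3 to 134 and from 42.7 to 66.5 CPM, so neither order turned. *Sst* was 1.35 times (1.24 to 1.47) higher in untreated *Slc32a1* cells.

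In *Slc17a6* cells 1 of 3 was, *Sst*, beside 11.6% of genes, with the 4OH-tamoxifen level at 0.455 times (0.372 to 0.558) the untreated one and the order that turned as given above. In *Pdgfra* cells 1 of 2 was, *Sstr1*, beside 4.83%, 2.70 times (1.43 to 5.35) higher in the untreated library, and ranged from 22.0 to 35.0 CPM against 10.2 to 20.7 CPM under the alternatives. In *Aqp4* cells 1 of 2 was, *Sst*, beside 5.46%, at levels within 4 times the background. In *Chat* cells 1 of 2 was, *Tacr1*, beside 20.8%, with an interval of its ratio from 0.820 to 6.20. Without the top cell of each library it was at 23.5 CPM (untreated) and 23.9 CPM (4OH-tamoxifen), so its order turned. *Nmb* cells had 0 of 1, beside 7.89%, and *Mog* cells 0 of 2, beside 5.03%. Whether any of these ratios go with 4OH-tamoxifen, with the batch or with the mixture of cells caught in each library cannot be told apart.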

How the data were processed

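The authors prepared 10x version 2 libraries, and per the submitters' processing notes reads were converted with bcl2fastq 2.18.0.12 and aligned and counted with Cell Ranger 2.2.0 on mm10. Each deposited matrix holds a raw count for every gene and barcode, without normalization and before the study's filters on cells. Following the paper, Scrublet (in scanpy 1.11.5, 2 simulated doublets per cell, automatic threshold) removed 6 and 544 doublets, and cells with under 800 genes, over 50 hemoglobin UMIs or over 20% mitochondrial UMIs were left out. The doublet threshold differed between libraries, at 0.512 and 0.179.

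Gates were set per cell in place of clusters. Glial gates asked for at least 2 UMIs of *Aqp4*, *Pdgfra*, *Mog* or *C1qa*. Neurons needed 3 UMIs over *Snap25*, *Syp*, *Tubb3* and *Elavl2* from at least 2 of them, with at least 2 UMIs of *Nmb*, which took precedence over *Slc17a6*, or 1 of *Slc17a6*, *Slc32a1* or *Chat*. Cells in more than 1 gate were set apart, as were 5 further gates (*Tph2*, *Dbh*, *Cldn5*, *Kcnj8*, *Dcn*). Counts were summed per class and library, with exact intervals, and a floor of 3 counts where a level was 0. Cells with exactly 1 UMI of a gene were left out of the comparison of cells with at least 2 UMIs and with none. The 5 genes with the highest ratio were named, among those with at least 10 UMIs in the cells with the peptide, in each library where both had at least 10 such cells and otherwise over both. The members, the lists and the splits were chosen with earlier results of these data known. The ratios were run on simulated Poisson counts, the model that their intervals assume. That simulation left out the uneven spread of UMIs over cells, so it cannot show whether the intervals hold for it. Python 3.11.15, numpy 2.4.6, scipy 1.17.1, pandas 2.3.3, biopython 1.88 and matplotlib 3.10.9 were used. Values for 1 marker of the lists are not reported here.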

Additional observations from a re-analysis of the deposited data

Results flagged for a closer look

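In 5 cases a member's ratio of 4OH-tamoxifen to untreated CPM had an interval on the other side of 1 from that of the same member in another class. For *Sst* the ratio was 2.05 in *Aqp4* cells (1.17 to 3.77) but 0.455 in *Slc17a6* cells (0.372 to 0.558) and 0.743 in *Slc32a1* cells (0.682 to 0.809). For *Tac1* it was 1.66 in *Slc17a6* cells (1.16 to 2.44) and 0.680 in *Pdgfra* cells (0.504 to 0.914). Both *Slc17a6* directions turned with the glial gate at 1 UMI, where *Sst* was at 15.6 CPM (untreated) and 590 CPM (4OH-tamoxifen) and *Tac1* at 515 and 427 CPM, and that of *Tac1* also with the gate at 4 UMIs, at 386 and 302 CPM. The *Sst* of *Aqp4* cells lay within 4 times the *C1qa* level, which itself went from 2.59 CPM (untreated) to 7.16 CPM (4OH-tamoxifen). With 1 library per condition these differences between classes were not tested, and the intervals cover counting error only.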

How the results depend on the processing

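The levels of the members rest on 19 to 82 untreated and 52 to 297 4OH-tamoxifen neurons per class. Few cells carry most UMIs of *Sst* in *Slc32a1* and *Slc17a6* cells and of *Tac1* in *Slc17a6* cells. No paired analysis was possible because each condition has 1 library. Across the alternatives, 140 values of the 6 leading levels stayed within the interval of the reported value and 28 did not, given next. With at most 10% mitochondrial UMIs, *Sst* in untreated *Slc32a1* cells was 1902 CPM, *Tac1* in *Slc17a6* cells 342 CPM (untreated) and 468 CPM (4OH-tamoxifen), *Tac2* and *Tacr3* in 4OH-tamoxifen *Slc32a1* cells 125 and 66.5 CPM, and *Tacr1* in *Nmb* cells 0 CPM (untreated) and 134 CPM (4OH-tamoxifen). With the glial gate at 1 UMI the values were 1080 CPM for *Sst* (untreated), 515 and 427 CPM for *Tac1* in the 2 libraries and 65.5 CPM for *Tac2* (4OH-tamoxifen). At 4 UMIs they were 928 CPM for *Sst* (4OH-tamoxifen) and 386 CPM for *Tac1* (untreated). *Sst* was at 903 CPM in 4OH-tamoxifen cells with no neuron condition and at 1163 CPM in untreated cells with the *Nmb* gate at 1 UMI, and *Tac1* at 266 CPM in 4OH-tamoxifen cells with the transmitter gate at 2 UMIs. Thinned to 2000 UMIs, *Sst* was at 1652 CPM (untreated), *Tac1* at 111 and 534 CPM and *Tacr1* in *Nmb* cells at 22.7 CPM (untreated). As a mean of each cell's own CPM, *Sst* was at 1571 and 1065 CPM and *Tac1* at 271 and 484 CPM. Without the cell with the most UMIs, chosen after seeing the data, *Sst* was at 1144 and 943 CPM and *Tac1* at 32.7 and 251 CPM. The *Sstr2* of *Nmb* cells stayed at 0 to 15.7 CPM and 5.34 to 22.4 CPM. Of the genes that go with a peptide, 2 changed direction, *Gal* with *Tac2* (log2 ratio -0.25) with the glial gate at 1 UMI and *Mpped1* with *Sst* in *Slc17a6* cells (log2 ratio -0.057) when thinned. A further 10 kept their direction with an interval that reached 1, which were *Gchfr* and *Irf2bp1* with at most 10% mitochondrial UMIs, *Ptrhd1* with the glial gate at 1 UMI, and *Fndc1*, *Gchfr*, *Ehbp1*, *Ptrhd1*, *Irf2bp1*, *Calca* and *Col5a1* when thinned, and 227 kept both. The cause of these changes was not tested.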
